A study of Mus musculus with 6 samples.

Results

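Glycolysis is the chain of enzymes that splits glucose into pyruvate, and glucose carriers and lactate carriers stand at its entry and exit. Its transcripts were followed here in 6 RNA-seq samples of mouse macrophages. The members were 68 of the 22063 genes in the deposited table. Of these, 62 carried the KEGG pathway name "Glycolysis / Gluconeogenesis" without that of the citrate cycle, and 6 were added by symbol: Slc2a1, Slc16a3, Pfkfb3, Pfkfb4, Pdk1 and Bnip3. The pathway name also brings in enzymes that handle alcohols, aldehydes and acetate, which are described apart from the steps between glucose and lactate.

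The samples were 3 of CAR-Trem2-Ms and 3 of CAR-Ms. Both groups are macrophages, labelled as skin, kept for 7 days in DMEM with M-CSF at 20 ng/mL and given a lentivirus that makes them CAR-Ms. The genotype of CAR-Trem2-Ms is written TERM2+, and their labels add VD3 at 1 µM for 24 h and sorting by flow cytometry. The genotype of CAR-Ms is written WT. A protocol shared by all 6 samples also mentions VD3, which leaves unclear if it was given to CAR-Ms as well. Trem2 status, sorting and VD3 cannot be told apart. Neither the promoter of the lentiviral construct nor a number of clones is stated in the labels.

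Total counts, in units of 1e6, were 9.8 to 12.6 in CAR-Trem2-Ms and 14.2 to 15.9 in CAR-Ms. Mitochondrially encoded genes took 13.4 to 13.8% of the counts in CAR-Trem2-Ms and 4.6 to 4.7% in CAR-Ms. With these genes left out of the fit, 18 tested members were higher and 22 lower, with a median log2 fold change of 0.08. In that fit 4669 of all 11387 tested genes were higher and 4573 lower. In counts per 1e6 after TMM scaling of the libraries (CPM), Trem2 averaged 191 CPM in CAR-Trem2-Ms and 76.6 CPM in CAR-Ms (log2 fold change 1.32 ± 0.04, SE). The 8 macrophage markers summed to 3934 to 3956 CPM in CAR-Trem2-Ms and 3455 to 3478 CPM in CAR-Ms. Every other marker list stayed low. Neutrophil markers summed to 2.22 to 4.99 CPM in CAR-Trem2-Ms and 15.5 to 27.4 CPM in CAR-Ms, and B cell markers to 2.59 to 3.51 CPM in CAR-Trem2-Ms and 7.60 to 11.8 CPM in CAR-Ms. Endothelial markers summed to 0.60 to 2.02 CPM in CAR-Trem2-Ms and 3.10 to 4.18 CPM in CAR-Ms. T cell markers summed to 3.24 to 5.42 CPM in CAR-Trem2-Ms and 0.67 to 1.03 CPM in CAR-Ms, and erythroid markers to 1.34 to 2.66 CPM in CAR-Trem2-Ms and 2.44 to 13.6 CPM in CAR-Ms. Dendritic cell and fibroblast sums reached at most 3.59 and 3.41 CPM in any sample. The keratinocyte markers Krt5 and Krt10 and the mast cell marker Cpa3 had no read in any sample, and the other keratinocyte and mast cell markers stayed at or below 0.11 CPM. The part of these other cell types in the results was not tested. In bulk RNA, fewer cells of a type and less RNA per cell cannot be told apart.

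As background, glucose enters macrophages through facilitative carriers of the Slc2a family and is trapped by hexokinases. Phosphofructokinase sets the pace of the middle of the pathway, under control of fructose 2,6-bisphosphate, which the Pfkfb enzymes make and break down. Pyruvate is then turned into lactate by lactate dehydrogenase or enters mitochondria through pyruvate dehydrogenase, which Pdk1 inhibits. In macrophages the pathway is known to rise on inflammatory activation and in low oxygen, where hypoxia-inducible factors bind promoters of several of these genes.

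In CAR-Trem2-Ms, 11 of the 21 tested enzymes between glucose and lactate were lower and 7 higher. By the same test, 40.1% of all tested genes were lower and 40.9% higher. At least 2-fold, 3 of these enzymes were higher and 2 lower, against 18.7% and 14.3% of all tested genes. The member carriers Slc2a1, at the entry, and Slc16a3, at the exit, were lower. Of 9 other tested carriers, 4 were higher and 4 lower. Ldha, which makes lactate, fell to 574 ± 16.1 CPM in CAR-Trem2-Ms, against 1763 ± 31.2 CPM in CAR-Ms (SD, n = 3 each). Pfkfb3 fell to 20.9 ± 2.21 CPM in CAR-Trem2-Ms, against 101.8 ± 3.07 CPM in CAR-Ms. The largest rise was that of Hk3, a hexokinase of blood cells, to 134.5 ± 8.09 CPM in CAR-Trem2-Ms, against 16.0 ± 2.15 CPM in CAR-Ms. Every fold change sets CAR-Trem2-Ms over CAR-Ms.

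Of the 68 members, 46 had enough reads to be tested and 22 did not. Of these 46, 18 were higher, 21 were lower and 7 did not pass edgeR's quasi-likelihood test at a Benjamini-Hochberg adjusted p under 0.05. This must be read against a wide background: 81.1% of all 11402 tested genes passed, 40.9% higher and 40.1% lower, against 84.8% of the tested members. Changes of at least 2-fold were called for 6 members higher and 6 lower, where 18.7% of all tested genes were at least 2-fold higher and 14.3% at least 2-fold lower. The CPM of the groups did not overlap for 36 of the 46 members, and for 81.8% of all tested genes. The median log2 fold change was 0.08 over the tested members and 0.03 over all tested genes. Counted over the whole list, the share of members called was close to that of all genes.

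Of the 21 tested enzymes that act between glucose and lactate, 7 were higher, 11 lower and 3 not called, with a median log2 fold change of -0.26. The share called was 85.7%, near the 81.1% of all tested genes, of which 40.9% were higher and 40.1% lower. Changes of at least 2-fold were called for 3 higher and 2 lower, against 18.7% and 14.3% of all tested genes. The near-identical copies Eno1 and Eno1b both count among the 11 lower. The 21 enzymes include Adpgk and leave out Bpgm, Minpp1 and the predicted Gapdh-like genes. Their summed level was 16112 ± 47.5 CPM in CAR-Trem2-Ms and 21671 ± 89.5 CPM in CAR-Ms (SD, n = 3 each), a ratio of 0.743. All 68 members together took 1.71 ± 0.009% of the counts in CAR-Trem2-Ms and 2.45 ± 0.008% in CAR-Ms. The sum rests on the few most abundant enzymes, of which Pkm and Gapdh are the first.

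These figures depend on how the libraries are scaled. Over all tested genes the median was 0.03 with TMM scaling, 0.26 with upper quartile factors, -0.10 with total counts, -0.07 once GC content and transcript length were corrected for, and -0.63 on log2(TPM + 1). Over the same settings the median of the glucose-to-lactate enzymes was -0.26, -0.02, -0.38, -0.32 and -1.0, below that of all genes each time. Members called higher and lower were 23 and 16 with upper quartile factors, 16 and 24 with the GC and length correction, and 5 and 28 on log2(TPM + 1), where 47 members were tested. In the same order, all tested genes gave 5714 and 3606 of 11402, 4183 and 4895 of 11402, and 1890 and 6946 of 10824. The deposited TPM, which account for gene length, gave the enzymes 10690.5 ± 96.6 TPM in CAR-Trem2-Ms and 22354 ± 256 TPM in CAR-Ms.

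**Figure D1:**
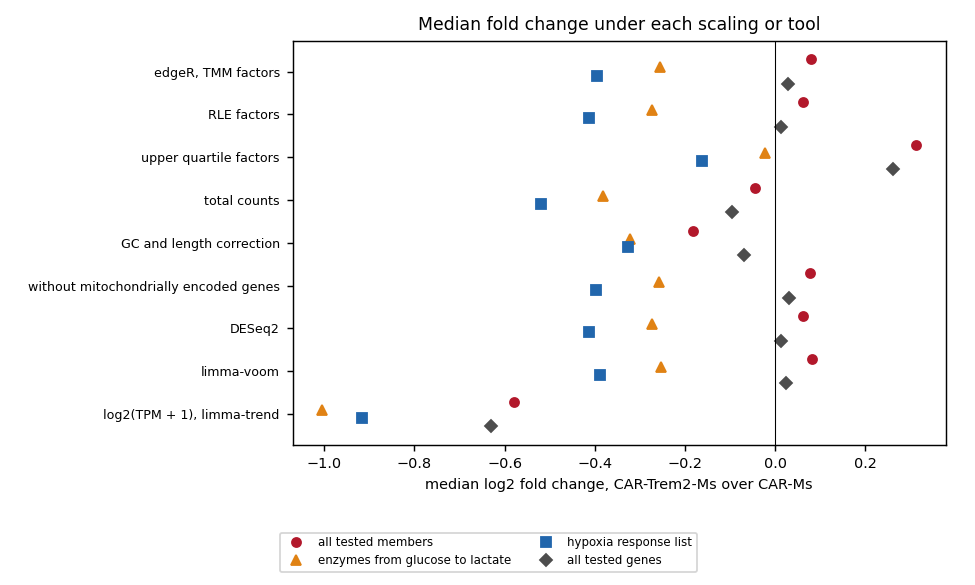
Median log2 fold change (CAR-Trem2-Ms over CAR-Ms, horizontal axis) of all tested members, the enzymes from glucose to lactate, a list of genes of the low-oxygen response and its regulators, and all tested genes, under 9 processing settings (vertical axis). The enzymes from glucose to lactate lie below all tested genes under each setting drawn, at -0.26 against 0.03 with TMM factors and at -1.0 against -0.63 on log2(TPM + 1).

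The member carriers, at the entry and the exit of the pathway, were lower. Slc2a1, the glucose carrier GLUT1 (ENSMUSG00000028645; chr4:119108711-119137983, plus strand, mm10), read 108, 110.1 and 107 CPM in CAR-Trem2-Ms, against 211, 218 and 220.2 CPM in CAR-Ms. The samples of CAR-Trem2-Ms sat close together and well below all those of CAR-Ms, a log2 fold change of -1.0 ± 0.04 (SE; adjusted p = 2.4e-19). Slc16a3, the lactate carrier MCT4 (ENSMUSG00000025161; chr11:120948480-120960868, plus strand), read 84.7, 77.5 and 81.2 CPM in CAR-Trem2-Ms, against 159, 151 and 164 CPM in CAR-Ms. Again no sample of one group reached the other, and the log2 fold change was -0.96 ± 0.05 (adjusted p = 8.1e-17). In the deposited TPM, Slc2a1 stood at 39.1 ± 0.529 TPM in CAR-Trem2-Ms and 121 ± 4.21 TPM in CAR-Ms (SD, n = 3 each).

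The 4 tested enzymes that phosphorylate glucose divided evenly, 2 lower and 2 higher, against 40.1% and 40.9% of all tested genes. Hk1, a hexokinase found in most tissues, read 165, 169 and 160.4 CPM in CAR-Trem2-Ms, against 213, 213 and 207 CPM in CAR-Ms. For Hk2, the hexokinase known to be induced by insulin and by low oxygen, the values were 98.8, 93.4 and 90.5 CPM in CAR-Trem2-Ms, against 133, 131 and 137 CPM in CAR-Ms. Both hexokinases were modestly lower without overlap, at log2 fold changes of -0.36 ± 0.04 and -0.50 ± 0.05 (adjusted p = 6.6e-10 and 9.5e-11).

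Hk3 (ENSMUSG00000025877; chr13:55005985-55021385, minus strand) moved the opposite way, at 136, 142 and 126 CPM in CAR-Trem2-Ms, against 15.4, 14.3 and 18.4 CPM in CAR-Ms. It was low in every CAR-Ms sample and 8.39-fold higher in CAR-Trem2-Ms (log2 3.07 ± 0.08; adjusted p = 4.1e-24), the largest change of any tested member. Adpgk, a hexokinase-like enzyme that uses ADP in place of ATP, read 141, 143 and 153 CPM in CAR-Trem2-Ms, against 62.98, 61.5 and 65.2 CPM in CAR-Ms. It was also higher in all 3 CAR-Trem2-Ms samples, by 1.20 ± 0.05 (log2; adjusted p = 1.1e-18). Hkdc1, a gene of the hexokinase family, had 11 reads over all 6 samples and was not tested.

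The make-up of the hexokinase family did not overlap between the groups. Hk3 accounted for 43.4 ± 1.53% of the family's summed TPM in CAR-Trem2-Ms and 6.18 ± 0.84% in CAR-Ms (SD, n = 3 each). Hk1 accounted for 40.2 ± 1.07% in CAR-Trem2-Ms and 65.3 ± 1.73% in CAR-Ms, and Hk2 for 16.4 ± 0.90% in CAR-Trem2-Ms and 28.4 ± 0.84% in CAR-Ms. The difference for Hk1 was -25.1 percentage points, or -16.6 when shares were taken of counts. A share within a library does not move with library scaling. In a two-sided exact permutation test each of these 3 differences had p = 0.10, the smallest that 3 samples against 3 allow, so no such share can pass a threshold of 0.05. Among 22 shares tested in this way the adjusted p was 0.105 for the 21 without overlap.

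**Figure D2:**
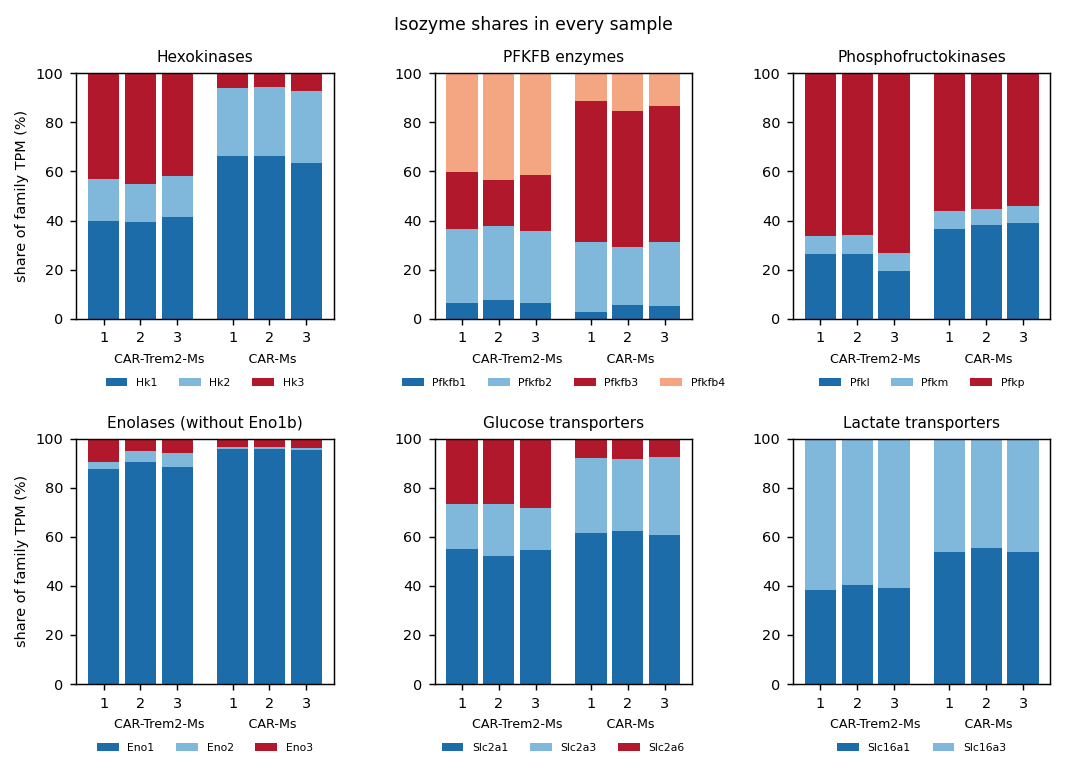
Share of each isozyme in the summed TPM of its family (percent, vertical axis), with 1 stacked bar per sample, CAR-Trem2-Ms left of CAR-Ms, for 6 families. Hk3 fills 43.4% of the hexokinase bars on average in CAR-Trem2-Ms and 6.18% in CAR-Ms, and Pfkfb3 fills 21.6% of the Pfkfb bars in CAR-Trem2-Ms and 56.0% in CAR-Ms.

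The next steps turn glucose 6-phosphate into a pair of triose phosphates, and 7 of their genes were tested. Gpi1, the isomerase, read 672, 628 and 630.4 CPM in CAR-Trem2-Ms, against 674, 667 and 664 CPM in CAR-Ms. The groups overlapped, and Gpi1 did not pass (log2 -0.05 ± 0.03; adjusted p = 0.057). It passed as lower with several other settings (-0.07 with RLE factors, adjusted p = 0.014), and without CAR-Trem2-Ms replicate 1 (-0.09, adjusted p = 0.0018), and lay at 0.18 with upper quartile factors.

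The phosphofructokinases, which commit sugar to the pathway, did not move together. Pfkl, the liver-type subunit, read 64.8, 68.4 and 65.1 CPM in CAR-Trem2-Ms, against 107, 107 and 114 CPM in CAR-Ms, lower at a log2 fold change of -0.72 ± 0.05 (adjusted p = 5.6e-13). Pfkp, the platelet-type subunit, read 203, 203 and 231 CPM in CAR-Trem2-Ms, against 164, 175 and 175 CPM in CAR-Ms. Pfkp was higher in every CAR-Trem2-Ms sample on this scale (log2 0.31 ± 0.04; adjusted p = 3.6e-07), but its log2 fold change was -0.41 on log2(TPM + 1). The median over all tested genes on log2(TPM + 1) was -0.63, so Pfkp lay above it. For Pfkm, the muscle-type subunit, values were 21.1, 21.1 and 18.9 CPM in CAR-Trem2-Ms, against 19.5, 17.5 and 21.7 CPM in CAR-Ms, overlapping between the groups (log2 0.06 ± 0.12; adjusted p = 0.64). Pfkm lay at -0.02 without CAR-Ms replicate 2, and passed as higher with upper quartile factors (0.29, adjusted p = 0.023). Of the family's TPM, Pfkp held 68.3 ± 4.11% in CAR-Trem2-Ms and 55.1 ± 1.07% in CAR-Ms, and Pfkl held 24.1 ± 3.84% in CAR-Trem2-Ms and 38.0 ± 1.20% in CAR-Ms.

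Aldolases split fructose 1,6-bisphosphate. Aldoa, the main form here, read 1108, 1049.9 and 1143 CPM in CAR-Trem2-Ms, against 1304, 1310.2 and 1331 CPM in CAR-Ms. It was slightly lower in every CAR-Trem2-Ms sample (log2 -0.26 ± 0.02; adjusted p = 8.0e-11), a call lost with upper quartile factors (-0.02, adjusted p = 0.35). Aldoc, the brain-type aldolase, read 36.95, 41.02 and 40.4 CPM in CAR-Trem2-Ms, against 26.5, 23.4 and 22.5 CPM in CAR-Ms. It was higher without overlap (log2 0.71 ± 0.09; adjusted p = 6.7e-08). On log2(TPM + 1) it lay at -0.0016, where the median over all tested genes was -0.63. Aldoc made up 2.41 ± 0.14% of aldolase TPM in CAR-Trem2-Ms and 1.28 ± 0.14% in CAR-Ms. Tpi1, which interconverts the 2 trioses, read 361, 364 and 362 CPM in CAR-Trem2-Ms, against 612, 618 and 624 CPM in CAR-Ms. Tpi1 had little spread within either group and was lower at a log2 fold change of -0.77 ± 0.03 (adjusted p = 3.5e-21).

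The regulators of phosphofructokinase changed in opposite directions. Pfkfb3 (ENSMUSG00000026773; chr2:11471433-11554077, minus strand), whose product fructose 2,6-bisphosphate activates phosphofructokinase, read 22.99, 18.6 and 21.2 CPM in CAR-Trem2-Ms, against 105, 99.1 and 101 CPM in CAR-Ms. Every CAR-Trem2-Ms sample was far below every CAR-Ms sample, with a log2 fold change of -2.27 ± 0.07 (adjusted p = 2.0e-21), the largest fall of any tested member. Pfkfb4, a related enzyme of the same family, read 29.3, 31.03 and 29.9 CPM in CAR-Trem2-Ms, against 15.6, 19.2 and 18.3 CPM in CAR-Ms. It was higher in counts, at a log2 fold change of 0.76 ± 0.11 (adjusted p = 2.5e-07). In TPM, Pfkfb4 stood at 8.88 ± 0.248 in CAR-Trem2-Ms and 8.56 ± 1.13 in CAR-Ms (SD, n = 3 each). The median over all tested genes was -0.63 on log2(TPM + 1), so near-equal TPM lie above that median. Pfkfb3 was 21.6 ± 2.35% of the family's TPM in CAR-Trem2-Ms and 56.0 ± 1.04% in CAR-Ms, while Pfkfb4 was 41.7 ± 1.61% in CAR-Trem2-Ms and 13.4 ± 2.02% in CAR-Ms. Pfkfb2 held 29.9 ± 0.54% in CAR-Trem2-Ms and 26.1 ± 2.58% in CAR-Ms, a difference of 3.81 percentage points that was 10.04 when shares were taken of counts.

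**Figure D3:**
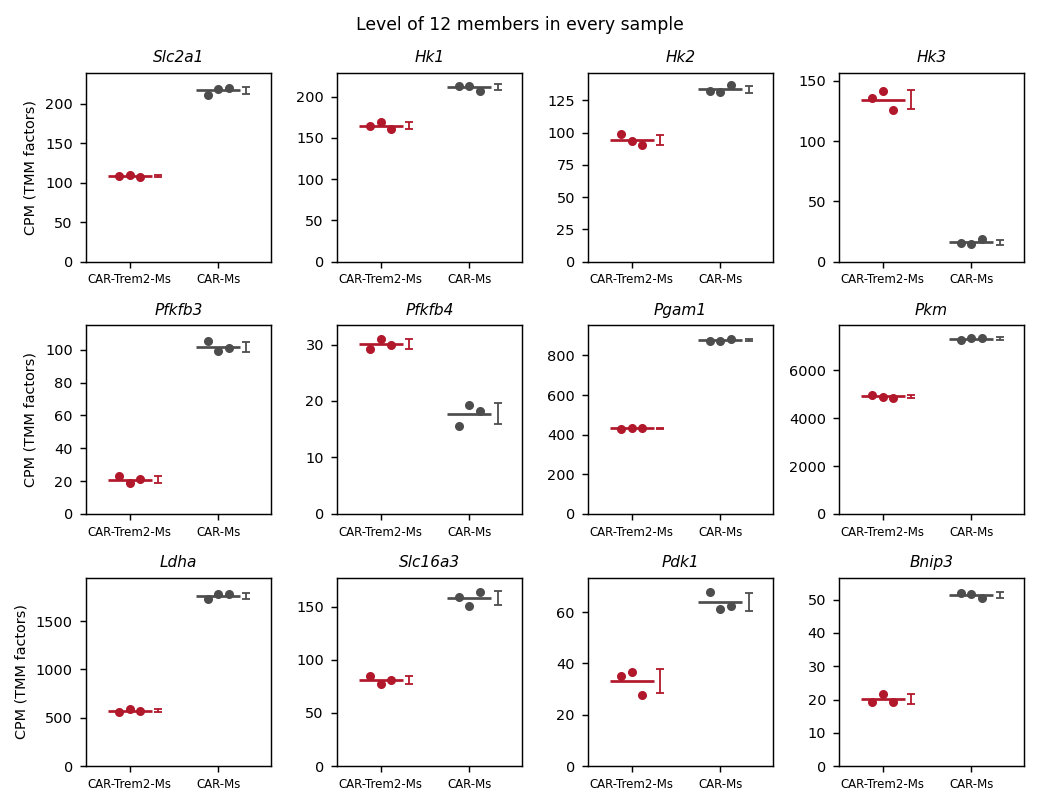
TMM-scaled CPM (vertical axes, each starting at 0) of 12 members in each of the 6 samples, with CAR-Trem2-Ms left of CAR-Ms. Points are samples, lines are group means and bars are the SD of 3 samples. Hk3 and Pfkfb4 stand higher in CAR-Trem2-Ms and the other 10 stand lower, with no overlap in any panel.

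From triose phosphate to pyruvate, 13 members were tested, of which 3 were higher, 6 lower and 4 not called. The share called was 69.2%, against 81.1% of all tested genes, of which 40.9% were higher and 40.1% lower. Gapdh, which oxidises glyceraldehyde 3-phosphate, read 4335, 4431 and 4432 CPM in CAR-Trem2-Ms, against 4133, 4136 and 4060.2 CPM in CAR-Ms. The difference was small, at 0.10 ± 0.02 (log2; adjusted p = 1.1e-06), and its direction depends on scaling: Gapdh lay at -0.03 with total counts, -0.11 with the GC and length correction and -0.58 on log2(TPM + 1). In the same order, the medians over all tested genes were -0.10, -0.07 and -0.63. Pgk1, the first step that yields ATP, read 799, 782 and 757 CPM in CAR-Trem2-Ms, against 1085, 1083 and 1074 CPM in CAR-Ms. Pgam1, the phosphoglycerate mutase, read 427, 435 and 432 CPM in CAR-Trem2-Ms, against 876, 871 and 884 CPM in CAR-Ms. Pgk1 and Pgam1 were each lower without overlap, at log2 fold changes of -0.47 ± 0.02 and -1.02 ± 0.02 (adjusted p = 2.2e-17 and 5.5e-25). Pgam1 made up nearly all of the TPM of Pgam1 and Pgam2, 99.8 ± 0.17% in CAR-Trem2-Ms and 99.7 ± 0.12% in CAR-Ms.

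Among the enolases the main forms were lower and Eno2 was higher. Eno1 read 613, 637 and 649.6 CPM in CAR-Trem2-Ms, against 1035, 1031 and 1012 CPM in CAR-Ms. Its near-identical copy Eno1b read 1339, 1315 and 1362 CPM in CAR-Trem2-Ms, against 2078, 2091 and 2139 CPM in CAR-Ms. The coding sequences of Eno1 and Eno1b are both 1305 bases long and differ at 8 of them (99.4% identity), so reads may be split between them in either direction. Summed before the fit, they stood at 1972 ± 34.7 CPM in CAR-Trem2-Ms and 3129 ± 19.6 CPM in CAR-Ms, a log2 fold change of -0.67 ± 0.02 (adjusted p = 8.0e-24), close to those counted apart (-0.70 and -0.65).

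Eno2, the neuronal enolase, read 25.6, 36.3 and 34.9 CPM in CAR-Trem2-Ms, against 8.43, 9.53 and 10.01 CPM in CAR-Ms. Although it was low in both groups, each CAR-Trem2-Ms sample was above all CAR-Ms samples, 3.45-fold in all (log2 1.79 ± 0.13; adjusted p = 9.1e-13). Eno3, the muscle enolase, read 33.02, 23.4 and 29.9 CPM in CAR-Trem2-Ms, against 24.6, 22.3 and 26.2 CPM in CAR-Ms. These overlapped, and its call as higher was marginal (log2 0.25 ± 0.11; adjusted p = 0.041). Without CAR-Trem2-Ms replicate 1 it lay at 0.14 (adjusted p = 0.29), without CAR-Trem2-Ms replicate 3 at 0.23 (0.11), without CAR-Ms replicate 1 at 0.25 (0.083), without CAR-Ms replicate 2 at 0.18 (0.19), and on log2(TPM + 1) at -0.47. The median over all tested genes on log2(TPM + 1) was -0.63. Eno4, read at 2.42, 2.34 and 2.05 CPM in CAR-Trem2-Ms, against 2.02, 2.05 and 2.04 CPM in CAR-Ms, did not pass (log2 0.15 ± 0.34; adjusted p = 0.69).

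Pkm, the pyruvate kinase of most tissues, took the most counts of any member. It read 4971, 4887 and 4864 CPM in CAR-Trem2-Ms, against 7266, 7361 and 7347 CPM in CAR-Ms. The samples of each group sat close together, and the log2 fold change was -0.58 ± 0.01 (adjusted p = 1.7e-24). Pklr, the liver and red cell form, had 14 reads over all samples. Bpgm, which makes 2,3-bisphosphoglycerate, read 13.9, 16.5 and 18.6 CPM in CAR-Trem2-Ms, against 15.8, 13.4 and 12.3 CPM in CAR-Ms and did not pass (log2 0.23 ± 0.14; adjusted p = 0.12). Without CAR-Trem2-Ms replicate 1, Bpgm passed at 0.34 (adjusted p = 0.036), as it did with upper quartile factors at 0.47 (adjusted p = 0.0033). Minpp1, a phosphatase of inositol phosphates and 2,3-bisphosphoglycerate, was lower at -0.20, but lay at 0.03 with upper quartile factors. The predicted Gapdh-like genes Gm10358 and Gm3839 lay at 0.85 and 0.41 and did not pass, though Gm10358 did with upper quartile factors (1.08, adjusted p = 0.038).

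Of all tested members, Ldha had the smallest adjusted p. Ldha (ENSMUSG00000063229; chr7:46841475-46855627, plus strand) read 558, 590.1 and 574 CPM in CAR-Trem2-Ms, against 1727, 1782 and 1781 CPM in CAR-Ms. The CAR-Ms samples were all far above the CAR-Trem2-Ms samples, a log2 fold change of -1.62 ± 0.02 (adjusted p = 8.3e-30). In the deposited TPM, Ldha stood at 431 ± 14.1 TPM in CAR-Trem2-Ms and 2112 ± 51.7 TPM in CAR-Ms (SD, n = 3 each). Ldhb, the heart-type subunit, had 30 reads in all samples together, Ldhal6b had 17 and Ldhc had none, so Ldha supplied 99.9 ± 0.04% of the TPM of Ldha, Ldhb and Ldhc in CAR-Trem2-Ms and 99.95 ± 0.03% in CAR-Ms.

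Of the genes added for the fate of pyruvate and mitochondria, both were lower. Pdk1, the kinase that inhibits pyruvate dehydrogenase, read 35.2, 36.7 and 27.7 CPM in CAR-Trem2-Ms, against 67.9, 61.3 and 62.4 CPM in CAR-Ms. Bnip3, a mitophagy receptor known to be induced by low oxygen, read 19.3, 21.8 and 19.4 CPM in CAR-Trem2-Ms, against 52.1, 51.7 and 50.5 CPM in CAR-Ms. The groups did not overlap for either gene, and the log2 fold changes were -0.95 ± 0.08 for Pdk1 and -1.36 ± 0.09 for Bnip3 (adjusted p = 3.4e-11 and 1.5e-14). Among the 6 genes added by symbol, 5 were thus lower and Pfkfb4 was higher, where 40.1% of all tested genes were lower and 40.9% higher.

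**Figure D4:**
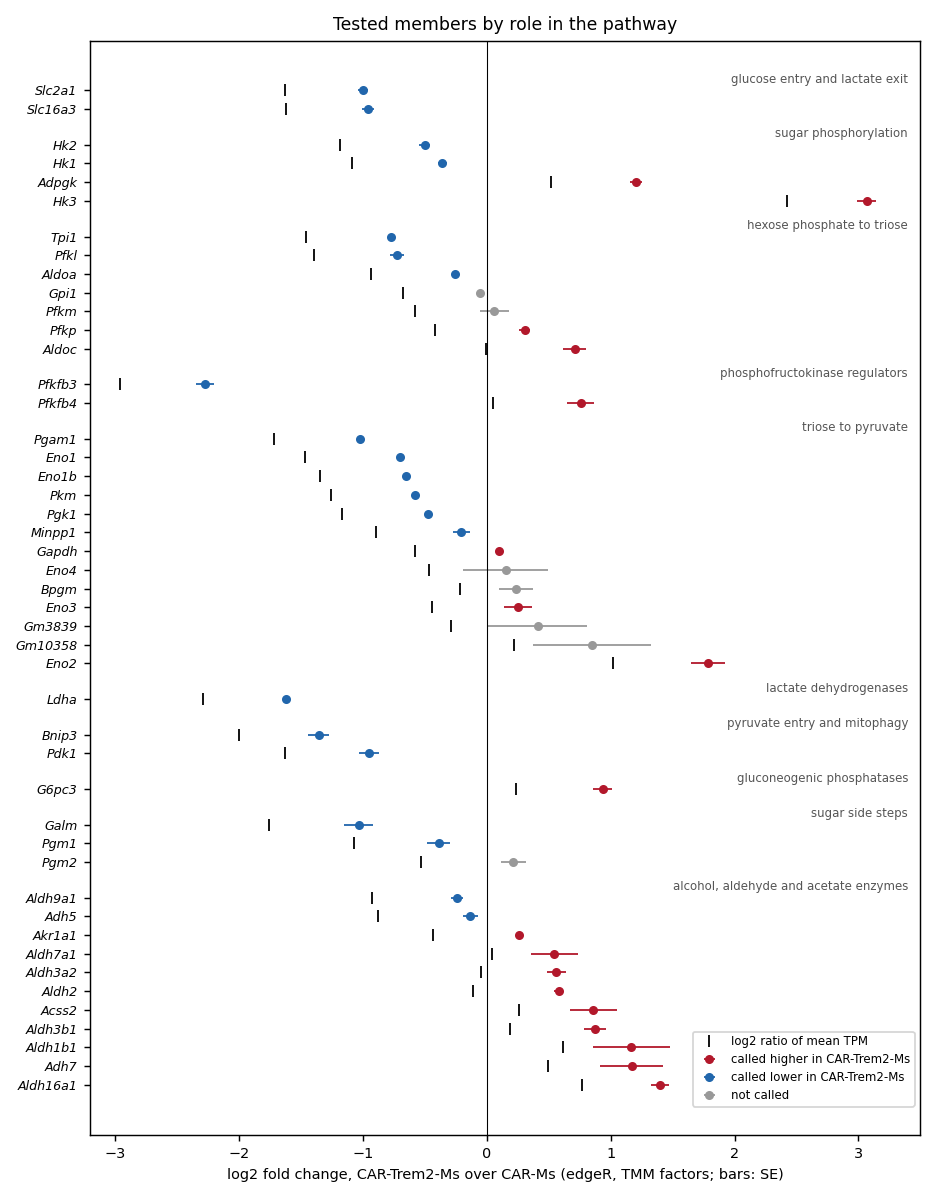
Log2 fold change (CAR-Trem2-Ms over CAR-Ms, horizontal axis) of the 46 tested members, ordered by role on the vertical axis. Points are edgeR estimates, bars their SE, colours mark the call at adjusted p under 0.05, and black ticks show the log2 ratio of mean TPM. Hk3 reaches 3.07 and Pfkfb3 -2.27, and the ticks lie left of the points.

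The promoters of members that moved together were read for the core of the hypoxia response element, ACGTG or GCGTG, on both strands of the 250 bases before each RefSeq start (GRCm38.p6, the build of mm10). A CACGTG, the E-box bound by factors such as Myc, holds ACGTG on both strands and so counts as 2 overlapping matches. Of the members, 57 had a promoter in the table. The windows below show members that were lower (Ldha, Pgam1, Bnip3, Pdk1 and Hk2) and the hexokinase that was higher (Hk3), chosen with their matches and values known. They are printed 5′ to 3′ on the strand of the gene, with matched bases in capitals. Bases annotated as exon were left out, which took 13 bases from Bnip3 and none from the others. The windows are chr7:46845554-46845803, plus strand (an internal start of Ldha); chr19:41911621-41911870, plus strand; chr7:138909520-138909756, minus strand; chr2:71872974-71873223, plus strand; chr6:82774455-82774704, minus strand; and chr13:55021386-55021635, minus strand.
Ldha: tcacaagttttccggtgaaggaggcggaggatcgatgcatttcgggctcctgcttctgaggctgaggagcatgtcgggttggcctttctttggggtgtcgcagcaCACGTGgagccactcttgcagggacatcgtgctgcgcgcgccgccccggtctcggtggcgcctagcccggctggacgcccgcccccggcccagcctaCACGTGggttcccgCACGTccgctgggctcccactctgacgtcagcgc
Pgam1: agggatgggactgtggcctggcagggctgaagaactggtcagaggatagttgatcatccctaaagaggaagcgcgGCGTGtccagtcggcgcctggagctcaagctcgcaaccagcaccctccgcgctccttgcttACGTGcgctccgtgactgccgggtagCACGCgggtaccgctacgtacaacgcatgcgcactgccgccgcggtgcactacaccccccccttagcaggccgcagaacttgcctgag
Bnip3: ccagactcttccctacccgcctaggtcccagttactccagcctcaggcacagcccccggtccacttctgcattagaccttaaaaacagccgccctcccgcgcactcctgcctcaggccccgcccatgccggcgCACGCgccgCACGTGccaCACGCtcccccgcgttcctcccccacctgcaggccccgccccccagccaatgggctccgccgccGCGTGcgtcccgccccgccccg
Pdk1: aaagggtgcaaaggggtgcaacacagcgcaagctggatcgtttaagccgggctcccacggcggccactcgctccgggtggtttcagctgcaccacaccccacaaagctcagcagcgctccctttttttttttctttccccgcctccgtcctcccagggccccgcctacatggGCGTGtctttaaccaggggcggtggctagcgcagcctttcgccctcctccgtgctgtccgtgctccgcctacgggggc
Hk2: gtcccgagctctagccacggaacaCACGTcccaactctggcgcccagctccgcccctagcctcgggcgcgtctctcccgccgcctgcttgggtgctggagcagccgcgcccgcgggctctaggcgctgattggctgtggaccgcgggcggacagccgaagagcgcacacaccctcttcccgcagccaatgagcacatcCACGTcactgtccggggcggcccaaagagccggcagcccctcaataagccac
Hk3: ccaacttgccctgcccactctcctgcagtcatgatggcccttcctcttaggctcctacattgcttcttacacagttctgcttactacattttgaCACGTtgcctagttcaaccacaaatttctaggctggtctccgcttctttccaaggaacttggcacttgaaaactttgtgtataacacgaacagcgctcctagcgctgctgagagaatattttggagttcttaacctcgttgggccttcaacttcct

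Ldha and Bnip3 each held 5 matches in these windows, Pgam1 3, Hk2 2, Pdk1 1 and Hk3 1. The window shown is the one farthest upstream, and the second windows of Ldha and Pdk1, from starts further into these genes, held 1 match and 0. In Ldha the matches began 145, 144, 48, 47 and 34 bases before the start and included 2 CACGTG. Bnip3 had its matches between 117 and 35 bases before the start, with 1 CACGTG. The single match of Hk3 lay 156 bases before the start, in a window of 47.2% GC, against 67.2% for Ldha and 72.6% for Bnip3. In windows not shown, higher members ranged from 4 matches in G6pc3 to 0 in Eno2, and lower members from 3 in Aldh9a1 to 0 in Tpi1.

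ACGTG or GCGTG stood in 79.3% of windows of members called lower, 70.6% of those called higher and 56.4% of those of tested genes. ACGTG alone stood in 15 of 29 windows (51.7%) of members called lower, from 19 genes. Among those called higher it stood in 5 of 17 windows (29.4%), from 16 genes. The share was 22.1% of the 11557 windows of tested genes and 16.6% of all 32851 windows. GCGTG did not follow the same order, at 44.8% of windows of lower members, 52.9% of higher members and 45.1% of tested genes. CACGTG stood in 10.3%, 11.8% and 8.43% of these windows. Median GC content was 62.8% in windows of lower members, 55.6% in those of higher members and 59.6% over tested genes, and its part in these shares was not tested. Several genes have more than 1 window, some of them overlapping, and a match is a description of letters, not a bound site.

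A list of non-members from the low-oxygen response, which includes regulators such as Hif1a and Egln2, held more lower than higher genes. Of 25 listed, 21 were tested: 5 were higher, 11 lower and 5 not called. Over all tested genes 81.1% were called, 40.9% higher and 40.1% lower. The list had a median log2 fold change of -0.40, or -0.22 without CAR-Ms replicate 1 or without CAR-Trem2-Ms replicate 1. Tfrc, the transferrin receptor, averaged 153 ± 7.52 CPM in CAR-Trem2-Ms and 872 ± 6.98 CPM in CAR-Ms (SD, n = 3 each), and was lower at a log2 fold change of -2.51 ± 0.03 (adjusted p = 2.6e-31). Kdm3a, a histone demethylase, and Egln1, the prolyl hydroxylase that marks Hif1a for breakdown, were lower at log2 fold changes of -1.32 ± 0.04 and -1.33 ± 0.10. Hif1a itself lay at -0.64 and Vegfa, which drives vessel growth, at -0.68, both past the test and named after their values were seen. Car9, Adm, Ddit4, Ndrg1 and Egln2 were higher, by log2 fold changes of 0.25 to 1.24. With upper quartile factors 8 were higher and 9 lower, and on log2(TPM + 1) none was higher and 18 were lower. Over all tested genes these counts were 5714 and 3606 of 11402, and 1890 and 6946 of 10824.

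The other carriers of sugar, lactate and pyruvate were mixed, with 4 higher and 4 lower of 9 tested (median -0.02). They were 6 higher and 2 lower with upper quartile factors, and 2 higher and 6 lower on log2(TPM + 1). Of all tested genes, 40.9% were higher and 40.1% lower. Their counts were 5714 and 3606 of 11402 with upper quartile factors, and 1890 and 6946 of 10824 on log2(TPM + 1). Slc16a1, the lactate carrier MCT1, read 165, 166 and 163 CPM in CAR-Trem2-Ms, against 572, 578 and 570.1 CPM in CAR-Ms. It was lower at a log2 fold change of -1.80 ± 0.03 (adjusted p = 2.3e-28). Slc16a3 made up 60.7 ± 1.06% of the TPM of both carriers in CAR-Trem2-Ms and 45.8 ± 0.87% in CAR-Ms, without overlap (exact permutation test, p = 0.10). Slc2a3, the glucose carrier GLUT3, averaged 41.8 ± 1.68 CPM in CAR-Trem2-Ms and 104 ± 1.71 CPM in CAR-Ms (SD, n = 3 each), a log2 fold change of -1.32 ± 0.06 (adjusted p = 5.1e-18). In contrast, Slc2a8, an intracellular glucose carrier, was higher at 1.45 ± 0.14, as was Slc2a6, a carrier of lysosomal membranes, at 1.02 ± 0.09, a gene named after its values were seen. Slc2a6 took 27.2 ± 0.96% of the TPM of Slc2a1, Slc2a3 and Slc2a6 in CAR-Trem2-Ms and 7.91 ± 0.29% in CAR-Ms, while Slc2a1 took 54.0 ± 1.63% in CAR-Trem2-Ms and 61.5 ± 0.83% in CAR-Ms.

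Regulators of glycolysis outside the members were 6 higher, 7 lower and 5 not called of 18 tested (median -0.03). They were 9 higher and 3 lower with upper quartile factors, and 3 higher and 14 lower on log2(TPM + 1). Of all tested genes, 40.9% were higher and 40.1% lower. Their counts were 5714 and 3606 of 11402 with upper quartile factors, and 1890 and 6946 of 10824 on log2(TPM + 1). Txnip, which restrains glucose uptake, averaged 499.5 ± 3.11 CPM in CAR-Trem2-Ms and 187 ± 2.02 CPM in CAR-Ms (SD, n = 3 each), a log2 fold change of 1.42 ± 0.03 (adjusted p = 4.3e-26). Myc, a transcription factor of growth and glycolytic genes, averaged 26.2 ± 3.02 CPM in CAR-Trem2-Ms and 3.61 ± 0.282 CPM in CAR-Ms (SD, n = 3 each), higher by 2.86 ± 0.15 (log2; adjusted p = 3.8e-16). Pdk2, a pyruvate dehydrogenase kinase like Pdk1, averaged 5.78 ± 1.01 CPM in CAR-Trem2-Ms and 1.24 ± 0.423 CPM in CAR-Ms (SD, n = 3 each), higher by 2.22 ± 0.32 (log2; adjusted p = 3.9e-07).

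Pathways that branch from glycolysis showed no common direction. Nor did all tested genes, of which 40.9% were higher and 40.1% lower. In the pentose phosphate pathway, which makes NADPH and ribose, 4 of 10 tested genes were higher and 3 lower (median -0.03). Pgls, the lactonase of its oxidative arm, was higher at a log2 fold change of 1.26 ± 0.04, and the ribose phosphate kinases Prps2 and Prps1 were lower at -1.67 ± 0.07 and -1.11 ± 0.05. Of 13 tested glycogen genes, 5 were higher and 4 lower (median -0.05). On log2(TPM + 1), 1 was higher and 8 lower in the pentose phosphate pathway, and 1 higher and 10 lower among the glycogen genes. On that scale 1890 of all 10824 tested genes were higher and 6946 lower. Gys1, glycogen synthase, was higher at a log2 fold change of 1.26 ± 0.08. Gsk3b, a kinase that inhibits it, and Pygm, the muscle glycogen phosphorylase, were lower at -1.22 ± 0.05 and -1.70 ± 0.23.

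Among members outside the main steps, G6pc3, the glucose 6-phosphatase of most tissues, read 63.6, 54.3 and 65.6 CPM in CAR-Trem2-Ms, against 31.8, 33.5 and 30.8 CPM in CAR-Ms. It was higher by 0.94 ± 0.08 (log2; adjusted p = 1.1e-11), whereas G6pc, G6pc2, Fbp1 and Fbp2, which act in gluconeogenesis or in islets, had at most 5 reads over all samples each. Galm, which interconverts the anomers of sugars, read 14.5, 10.8 and 13.4 CPM in CAR-Trem2-Ms, against 25.6, 27.8 and 26.3 CPM in CAR-Ms, lower at a log2 fold change of -1.03 ± 0.12 (adjusted p = 7.0e-09). Pgm1, which links glycolysis to glycogen, was lower at -0.39, a call lost with upper quartile factors (-0.15, adjusted p = 0.12). Pgm2 did not pass at 0.22, but passed with upper quartile factors (0.45, adjusted p = 2.8e-04), without CAR-Ms replicate 3 (0.28, adjusted p = 0.035) and without CAR-Trem2-Ms replicate 2 (0.29, adjusted p = 0.015).

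The 11 tested enzymes of alcohols, aldehydes and acetate went mostly up, 9 higher and 2 lower, with a median log2 fold change of 0.58. Over all tested genes 40.9% were higher and 40.1% lower. Aldh16a1, an aldehyde dehydrogenase family member, read 66.5, 61.6 and 65.7 CPM in CAR-Trem2-Ms, against 25.4, 23.5 and 24.8 CPM in CAR-Ms, higher by 1.40 ± 0.08 (log2; adjusted p = 5.5e-16). Adh7, an alcohol dehydrogenase that also oxidises retinol, read 5.02, 7.54 and 5.98 CPM in CAR-Trem2-Ms, against 2.63, 2.65 and 2.90 CPM in CAR-Ms. Aldh1b1, a mitochondrial aldehyde dehydrogenase, read 4.85, 4.99 and 4.78 CPM in CAR-Trem2-Ms, against 2.49, 1.15 and 2.90 CPM in CAR-Ms. Both of these were low, with no overlap between the groups, and were higher by 1.17 ± 0.26 and 1.17 ± 0.31 (log2; adjusted p = 1.7e-04 and 0.0012).

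Log2 fold changes of the other enzymes called higher were 0.88 for Aldh3b1, 0.86 for Acss2, 0.58 for Aldh2, 0.56 for Aldh3a2, 0.54 for Aldh7a1 and 0.26 for Akr1a1, of which Aldh2, Aldh3a2 and Akr1a1 lay at -0.11, -0.05 and -0.44 on log2(TPM + 1). Aldh2 is the main mitochondrial enzyme for acetaldehyde, and Acss2 makes acetyl-CoA from acetate. The call of Aldh7a1 was lost without CAR-Ms replicate 3 (0.40, adjusted p = 0.084) and without CAR-Trem2-Ms replicate 1 (0.36, adjusted p = 0.11). Aldh9a1 was lower at -0.24, a call lost with upper quartile factors (-0.0068, adjusted p = 0.90). Adh5, the formaldehyde-clearing dehydrogenase, was lower at -0.13 (adjusted p = 0.044), but its log2 fold change turned to 0.10 with upper quartile factors. The call of Adh5 was lost without CAR-Ms replicate 1 (adjusted p = 0.082), without CAR-Ms replicate 3 (0.12), without CAR-Trem2-Ms replicate 1 (0.071) and without CAR-Trem2-Ms replicate 2 (0.28). On log2(TPM + 1) this group held 1 higher and 3 lower, with a median of 0.01, above the median of -0.63 over all genes on that scale.

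The 22 members without a test included 6 with no read in any sample: Aldoart1, Gapdhs, Pgk2, Ldhc, Fbp2 and Adh4, several of them known from testis or liver. None of the 22 had more than 21 reads in any sample, the highest being Pgam2, the muscle phosphoglycerate mutase. A count of 0 in a library allows up to 3 reads at these depths. The 6 genes with no read were thus below detection here, which does not show that they were silent. The other untested members had reads, but too few for a test.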

How the data were processed

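RNA of 6 samples was sequenced after Trizol extraction and SMARTER mRNA-Seq library preparation, per the labels' protocols. The submitters' processing notes name fastp 0.18.0, Bowtie2 2.2.8, StringTie 1.3.1, HISAT2 with no version, and the mm10 genome. For the counting tool, the annotation release and the use of strand, the labels say nothing. The authors deposited raw counts per gene, and these were tested. The authors also deposited TPM, a unit scaled by gene length, which gave isozyme shares and an alternative test. The deposited log2 fold changes and the deposited p-values, of unknown tool, were not used.

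Counts were fitted with edgeR 4.0.16 in R 4.3.3 (quasi-likelihood test, TMM factors, filterByExpr, Benjamini-Hochberg over 11402 genes, call at an adjusted p under 0.05). The script was tested on simulated data in which few genes changed, so that test does not cover scaling when most genes differ. Levels are CPM with TMM factors, and depth was 9.8 to 15.9 (in units of 1e6) counts per sample. Alternatives were DESeq2 1.42.0, voom and trend fits in limma 3.58.1, other factors, filters and thresholds, a replicate block, leaving out each sample, and, chosen after seeing the data, a GC and length correction (11382 of 11402 genes matched) and the sum of Eno1 and Eno1b. Whether replicates are separate cultures or animals is not stated in the labels; a p-value then reflects the spread of these libraries alone, which could be technical. Same-numbered samples did not deviate together (r = 0.03, -0.03 and 0.03), and differently numbered samples gave r of -0.06 to 0.03. With 3 samples per group, such values cannot settle whether the numbers pair samples.

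The members and lists were chosen with earlier results of these data known. Values per sample are given for the genes added by symbol, all tested enzymes between glucose and lactate, and other members called with an absolute log2 fold change of at least 1. From each related list up to 3 called genes with the largest fold change are named, given a mean in the higher group of no fewer than 50 reads. Gene coordinates are from GENCODE M21 and promoter sequences from RefSeq (GRCm38.p6).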

Additional observations from a re-analysis of the deposited data

How the results depend on the processing

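Of 46 tested members under 19 alternatives, 31 kept their direction throughout and 15 reversed at least once, in 46 of 874 values; leaving out the TPM settings, 10 values in 7 members reversed. Each TPM setting reversed 12 members. The median over all tested genes, 0.03 with TMM scaling, lay at -0.63 on log2(TPM + 1) and -0.69 on log2(TPM + 0.1). With no filter on log2(TPM + 1) it lay at -0.20. The cause of the reversals was not tested. The member median moved to 0.31 with upper quartile factors, -0.046 with total counts, 0.15 with no filter, -0.18 with the GC and length correction, -0.58 on log2(TPM + 1) and log2(TPM + 0.1) and -0.29 on log2(TPM + 1) with no filter. Members called higher numbered 5 under each TPM setting. All genes called higher there numbered 1890 on log2(TPM + 1) and 1881 on log2(TPM + 0.1), of 10824, and 2009 of 16598 with no filter. At an absolute log2 fold change of at least 1, 3765 genes, 6 higher and 6 lower members were called. Leaving out 1 sample in turn gave 17 to 19 members higher, 20 to 22 lower and a median of 0.064 to 0.11.

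On log2(TPM + 1), with or without the filter, and on log2(TPM + 0.1), Aldh2 lay at -0.11, Akr1a1 at -0.44, Aldoc at -0.0016 and -0.0015, Aldh3a2 at -0.046 and -0.047, Gapdh at -0.58, Pfkp at -0.41 and -0.42, Eno3 at -0.47 and -0.49, Pgm2 at -0.50 and -0.53, Bpgm at -0.31 and -0.34, Gm3839 at -0.17 and -0.30, Eno4 at -0.26 and -0.44, and Pfkm at -0.52 and -0.57. Minpp1, Gpi1 and Adh5 lay at 0.028, 0.18 and 0.10 with upper quartile factors, Gapdh and Pfkm at -0.027 and -0.064 with total counts, and Gapdh, Eno3, Eno4 and Pfkm at -0.11, -0.31, -0.089 and -0.32 with the GC and length correction. Leaving out 1 sample gave Pfkm a range of -0.024 (without CAR-Ms replicate 2) to 0.13.

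With the replicate number as a block, 18 members were higher and 22 lower, Gpi1 passing as lower (adjusted p = 0.032), the median was 0.08, and 9188 genes were called. As a share of counts instead of TPM, the difference in share (CAR-Trem2-Ms minus CAR-Ms) was -16.6 for Hk1, -41.2 for Pfkfb3, 10.04 for Pfkfb2, -1.67 for Aldoa and 11.4 for Slc16a3, in percentage points. Too few reads kept 22 members out of the test at these depths.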
